A study of Mus musculus with 8 samples.

Results

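The 10 genes described here encode enzymes that write, keep or remove DNA methylation, and the core of Polycomb repressive complex PRC2. They are Dnmt1 and Uhrf1 (maintenance of methylation), Dnmt3a and Dnmt3b (de novo methylation), Tet1, Tet2 and Tet3 (demethylation), and Ezh2, Suz12 and Eed (PRC2). They were chosen by name, all 10 were found among the 20172 genes of the table, and all 10 passed the filter on low values that left 13990 genes. RNA was sequenced from TNFR2+ and TNFR2- regulatory T cells (Tregs), with 4 libraries (replicates 1 to 4) of each. The cells came from spleens of female mice of the genotype Foxp3 YFP-cre, shared by both groups, in which a fluorescent protein fused to a recombinase is made from the Foxp3 locus. CD4+ T cells carrying the yellow fluorescence were sorted by the TNF receptor TNFR2 on their surface. Mice of the study were of both sexes and 8 to 12 weeks old, while these libraries are labelled female. The sources used here do not say whether a library was a single mouse or a pool, so that p-values measure the spread between these libraries, which may be technical.

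DNA methylation in mammals sits mainly on the cytosine of CG dinucleotides. When DNA is copied the new strand is bare, and Uhrf1 recognises the methylated parent strand and brings in the maintenance methyltransferase Dnmt1, while Dnmt3a and Dnmt3b can methylate DNA that carried no mark. The Tet dioxygenases oxidise methylcytosine, which opens the way to its removal. PRC2 methylates histone H3 at repressed genes, with Ezh2 or its paralog Ezh1 as the catalytic subunit and Suz12 and Eed as the scaffold that the catalytic subunit needs. In Tregs, demethylated regulatory regions of Foxp3 accompany stable expression of this lineage factor, and Ezh2 is known to be needed by activated Tregs.

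Promoters are shown first, for the members past the threshold (Uhrf1 and Tet3) and for those holding a word bound by the E2F factors, which act on genes of DNA replication. Windows of 300 bases, 250 before to 50 after each RefSeq transcript start (GRCm38.p6), were matched by symbol for all 10 members, 15 windows in all. They were searched on both strands for TTTCCCGC, TTTCGCGC, TTTGCCGC and TTTGGCGC, and for the shorter TTCCCGC, which the first of these contains. Capitals mark a match, on the strand of the gene or, where the reverse complement is shown, on the other. The stretches stop where an annotated untranslated region begins, or are cut to 30 bases inside one. The sequences run along the gene's strand: Uhrf1 at chr17:56303087-56303320 and chr17:56304063-56304312 (plus strand), Suz12 at chr11:79992856-79993105 (plus), Dnmt1 at chr9:20952824-20952853 and chr9:20952574-20952603 (minus), Ezh2 at chr6:47595009-47595038 (minus), and Tet3 at chr6:83441676-83441928 (minus), which held no match.
Uhrf1 first start: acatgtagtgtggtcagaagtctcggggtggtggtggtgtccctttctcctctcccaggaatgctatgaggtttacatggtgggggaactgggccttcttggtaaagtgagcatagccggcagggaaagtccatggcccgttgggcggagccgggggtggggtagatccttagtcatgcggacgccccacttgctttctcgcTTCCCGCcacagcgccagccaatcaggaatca
Uhrf1 second start: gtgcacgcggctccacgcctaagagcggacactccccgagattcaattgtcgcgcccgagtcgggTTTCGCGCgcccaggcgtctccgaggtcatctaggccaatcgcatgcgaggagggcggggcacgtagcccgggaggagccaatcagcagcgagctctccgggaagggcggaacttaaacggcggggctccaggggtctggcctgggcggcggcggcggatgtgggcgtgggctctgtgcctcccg
Suz12: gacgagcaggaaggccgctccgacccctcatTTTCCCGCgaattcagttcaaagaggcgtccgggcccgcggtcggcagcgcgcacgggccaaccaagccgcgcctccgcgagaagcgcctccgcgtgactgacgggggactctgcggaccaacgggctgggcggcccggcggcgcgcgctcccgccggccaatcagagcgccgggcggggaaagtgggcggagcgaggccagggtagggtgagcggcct
Dnmt1 upstream site: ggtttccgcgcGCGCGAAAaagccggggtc
Dnmt1 downstream site: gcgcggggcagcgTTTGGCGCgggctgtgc
Ezh2: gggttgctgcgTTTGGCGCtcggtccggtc
Tet3: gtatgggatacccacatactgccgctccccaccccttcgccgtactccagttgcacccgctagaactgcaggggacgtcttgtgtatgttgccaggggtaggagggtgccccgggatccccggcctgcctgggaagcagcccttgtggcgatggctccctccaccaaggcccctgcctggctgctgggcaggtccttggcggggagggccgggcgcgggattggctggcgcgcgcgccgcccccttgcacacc

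Of the 10 members, 4 held a word of 8 letters (Dnmt1, Uhrf1, Ezh2 and Suz12). Of all 27025 genes with a window, 2.60% did, and 2.26% of the 32851 windows. In the second Uhrf1 window the word began 185 bases before the start, in Suz12 it began 219 bases before it, and in Ezh2 at base 4 after it. The third Dnmt1 window held a word 219 bases before its start, on the opposite strand, and another at base 34 after it. The first Uhrf1 window held the shorter word, which 5.29% of genes have, 48 bases before the start. No word was found in the windows of Dnmt3a, Dnmt3b, Tet1, Tet2, Tet3 or Eed. The words contain CG, and the windows that held an 8-letter word had 31 to 41 CG dinucleotides against a median of 7 over all windows. Among the 8701 windows with at least 20 CG, 5.15% held a word of 8 letters. This is a share of windows, while the 4 of 10 members are genes, some with several windows. A match says that the letters are present and nothing of a factor bound there.

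**Figure D1:**
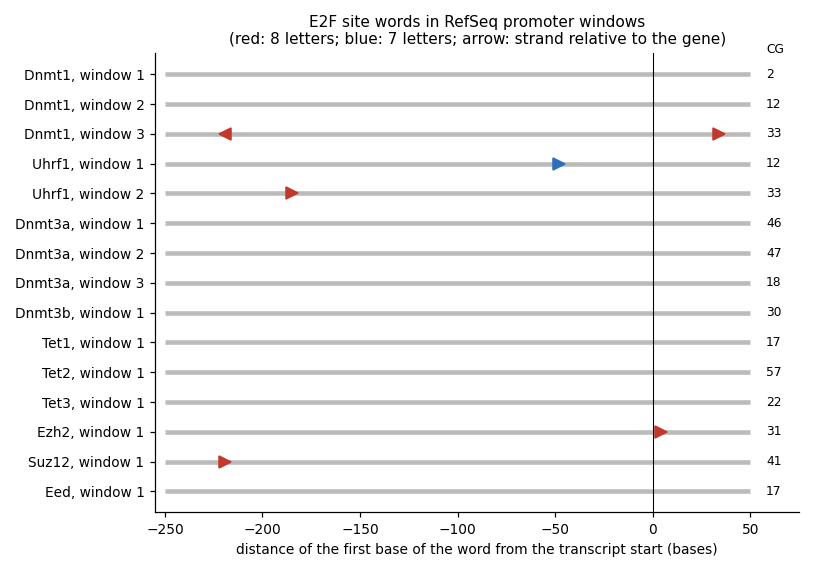
Positions of the E2F site words in the promoter windows of the 10 members, in bases from the transcript start; red arrows are 8-letter and blue arrows 7-letter words, pointing right on the strand of the gene, and the number at the right is the count of CG dinucleotides. The 5 red arrows lie in windows of Dnmt1, Uhrf1, Ezh2 and Suz12.

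The sum of normalized counts ranged from 9576920 to 11492762, and the estimated depth was 9100000 to 12110000 reads. Depth was inferred by reading low values of long genes with a single annotated transcript as whole reads. Of these values 69.7% (TNFR2- replicate 4) to 96.5% (TNFR2+ replicate 4) lay near a whole number, so the estimate is rough. TNFR2- replicate 3 stood apart on the second principal component (score 91.3, the others -39.1 to 18.0), and values without it are given where it matters. Tnfrsf1b, the gene of TNFR2, was higher in TNFR2+ Tregs (2501 ± 544 against 1321 ± 168, SD, n = 4, limma adjusted p = 0.00449, and 0.0574 without the intensity trend of the fit). All 9 Treg markers were in the table. Of these, 4 were called higher (Tnfrsf1b, just given, Ctla4, Ikzf2 and Cd3e) and 0 lower. Over all genes tested, 4.52% were called higher and 3.39% lower. Foxp3 lay at 2812 to 3313 in TNFR2+ and 3292 to 4033 in TNFR2- Tregs, with overlap. Il2ra was lower in TNFR2+ Tregs without overlap (2561 to 3070 against 3219 to 3990) but was not called (limma adjusted p = 0.086). Of 15 B cell markers, 12 were in the table and summed to 4810 to 6981 in TNFR2+ and 2010 to 3320 in TNFR2- Tregs. Of these, 2 were called higher (Ighm and Cd74) and 0 lower, beside the same 4.52% and 3.39% of all genes. Cd22 lay at 273 to 350.3 and 54.7 to 223 without overlap, Ms4a1 and Cd79b had values in every library with overlap, and Cd79a did not exceed 6.10 or Blk 3.41. Ebf1, Pax5 and Bank1 reached higher in TNFR2- than in TNFR2+ Tregs, with overlap (80.4 against 50.5, 41.5 against 9.68, and 43.7 against 33.5). Of 20 myeloid markers, 11 summed to 269.8 to 437 and 475 to 775, and of 6 platelet markers 2 summed to 116 to 335 and 417 to 650.1. Neither sum overlapped between the populations, and in each of these lists 1 marker was called lower and 0 higher. Of 12 cytotoxic lymphocyte markers, 9 summed to 231 to 387 and 137 to 333, with 1 called higher and 0 lower. The single erythroid marker of 9 with a row reached at most 12.1. The part of cells of these types in the results was not tested. In bulk samples fewer cells of a type and less RNA per cell cannot be told apart. Xist lay at 16369 to 18154 in TNFR2+ and 10228 to 13795 in TNFR2- Tregs. It was called higher (limma adjusted p = 0.00773, and 0.104 without the intensity trend). Yet the Y-linked genes Kdm5d and Uty, which have X-linked paralogs, had values of 122 to 257 and 72.2 to 212 in libraries labelled female. Both overlapped between the populations. The methods of the study name mice of both sexes. Whether male cells were present was not tested.

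The question was whether RNA of the maintenance, de novo, TET and PRC2 enzymes differed between TNFR2+ and TNFR2- Tregs. Uhrf1 rose and Tet3 fell. Thus 1 of the 10 members passed the adjusted threshold as higher and 1 as lower, where 4.52% of all genes tested were called higher and 3.39% lower. The groups did not overlap for 2 members that were higher (Uhrf1 and Dnmt1) and 1 that was lower (Tet3), against 8.08% and 7.29% of all genes. The median log2 fold change of the members was 0.28, and that of all genes tested was -0.01. At an unadjusted p under 0.05, 5 members were higher and 1 lower, where 12.3% of all genes tested were higher and 10.7% lower. The plot of values by library shows the members in both populations, and the plot of fold changes their intervals.

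**Figure D2:**
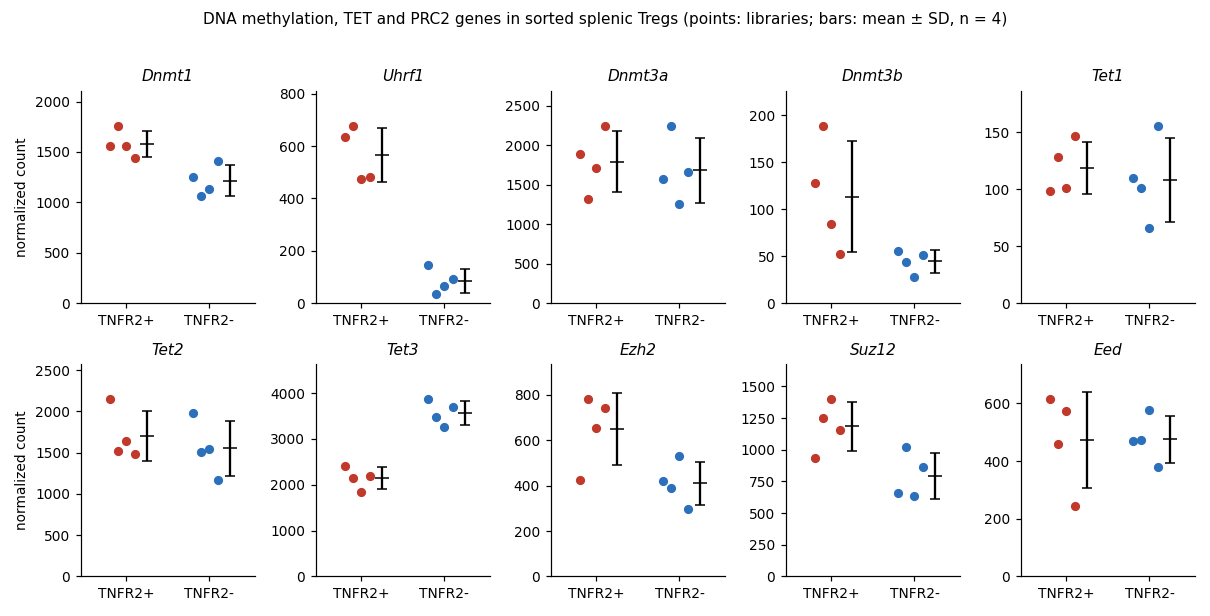
Normalized counts of the 10 members in each library (points; red TNFR2+, blue TNFR2-) with the mean and SD of 4 libraries beside them, each axis starting at 0. The 4 TNFR2+ libraries lie above all TNFR2- libraries for Uhrf1 and Dnmt1 and below them for Tet3.

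Uhrf1 (ENSMUSG00000001228, chromosome 17, 56303321 to 56323486, plus strand) had the largest fold change of the members. Its normalized counts were 633, 677, 473 and 482 in TNFR2+ replicates 1 to 4, and 144, 35.3, 66.9 and 91.7 in TNFR2- replicates 1 to 4. The lowest TNFR2+ library thus stood well above the highest TNFR2- library, and TNFR2- replicate 2 was the lowest of all. Uhrf1 rose 7.39-fold on the log2(normalized count + 1) scale (log2 2.89 ± 0.36 SE, 95% interval 2.12 to 3.65, limma adjusted p = 0.000498, exact permutation p = 0.0286). Without TNFR2- replicate 3 the log2 fold change was 2.83 (adjusted p = 0.000842 with limma). An annotated copy, Gm5648, shares 44.3% of the Uhrf1 transcript at 98.3% identity and has no row in the table. Uhrf2, the paralog of Uhrf1 that does not replace it in maintenance, had 993 ± 277 and 963 ± 210.4 (SD, n = 4), with a log2 fold change of 0.03 (95% interval -0.43 to 0.50).

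Dnmt1 (ENSMUSG00000004099, chromosome 9, 20907209 to 20959888, minus strand), the maintenance methyltransferase itself, did not pass the threshold. Its normalized counts were 1563, 1759, 1564 and 1442 in TNFR2+ Tregs and 1248, 1067, 1132 and 1416 in TNFR2- Tregs. The groups did not overlap, but TNFR2- replicate 4 lay just under TNFR2+ replicate 4. On the log2 scale the fold change was 0.38 ± 0.13 SE (95% interval 0.10 to 0.67, limma adjusted p = 0.0971, exact permutation p = 0.0286). That exact p is unadjusted and restates the lack of overlap, which 8.08% of all genes tested showed in this direction. The intervals of Uhrf1 and Dnmt1, the 2 genes of the maintenance step, do not meet.

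The de novo methyltransferases Dnmt3a and Dnmt3b did not pass the threshold either, and stood at very different levels. Dnmt3a (ENSMUSG00000020661, chromosome 12, 3806007 to 3914443, plus strand) had normalized counts of 1892, 1321, 1719 and 2243 in TNFR2+ and 1574, 2245, 1251 and 1659 in TNFR2- Tregs. Both populations spanned nearly the same range. Its log2 fold change was 0.10 (95% interval -0.32 to 0.51, limma adjusted p = 0.81), and -0.03 without TNFR2- replicate 3. Dnmt3b (ENSMUSG00000027478, chromosome 2, 153649450 to 153687730, plus strand) had 128, 189, 84.6 and 52.1 in TNFR2+ and 55.3, 43.9, 27.8 and 51.5 in TNFR2- Tregs. TNFR2+ replicate 4 fell inside the range of the TNFR2- libraries, and the other TNFR2+ libraries lay above it. For Dnmt3b the log2 fold change was 1.22 ± 0.43 SE (95% interval 0.28 to 2.15, limma adjusted p = 0.108, exact permutation p = 0.0571), and 1.01 without TNFR2- replicate 3 (limma adjusted p = 0.181). Dnmt3l, the cofactor of both that has no enzyme activity, had no row.

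Among the TET dioxygenases Tet3 fell, while Tet1 and Tet2 were not called. Tet3 (ENSMUSG00000034832, chromosome 6, 83362373 to 83459084, minus strand) had normalized counts of 2403, 2156, 1838 and 2196 in TNFR2+ Tregs and 3866, 3483, 3260.0 and 3692 in TNFR2- Tregs. Every TNFR2+ library lay below every TNFR2- library, and libraries of a population were close to each other. The log2 fold change was -0.74 ± 0.12 SE (95% interval -0.99 to -0.49, limma adjusted p = 0.00199, exact permutation p = 0.0286), and -0.78 without TNFR2- replicate 3 (limma adjusted p = 0.0021).

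Tet2 (ENSMUSG00000040943, chromosome 3, 133463679 to 133545139, minus strand) had normalized counts of 2147, 1517, 1645 and 1490.1 in TNFR2+ and 1978, 1513, 1540.2 and 1174 in TNFR2- Tregs. The ranges overlapped over most of their width, with replicate 1 the highest in both populations. Its log2 fold change was 0.14 (95% interval -0.23 to 0.51, limma adjusted p = 0.678). Tet1 (ENSMUSG00000047146, chromosome 10, 62804570 to 62908996, minus strand) had 98.6, 128, 101 and 146 in TNFR2+ and 110.3, 101, 65.6 and 156 in TNFR2- Tregs. TNFR2- Tregs held both the highest and the lowest Tet1 value. Its log2 fold change was 0.18 (95% interval -0.51 to 0.86, limma adjusted p = 0.79), and -0.04 without TNFR2- replicate 3.

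No core PRC2 gene passed the threshold in limma, and at an unadjusted p under 0.05 2 of the 3 were higher and 0 lower (all genes, 12.3% and 10.7%). Ezh2 (ENSMUSG00000029687, chromosome 6, 47530139 to 47595341, minus strand), the catalytic subunit, had normalized counts of 424, 779.7, 652 and 741 in TNFR2+ and 418, 391, 529 and 299 in TNFR2- Tregs. TNFR2+ replicate 1 stood with the TNFR2- libraries, and the other TNFR2+ libraries lay above them. Ezh2 had a log2 fold change of 0.65 ± 0.23 SE (95% interval 0.16 to 1.15, limma adjusted p = 0.101, exact permutation p = 0.0571). Without TNFR2+ replicate 1 it was 0.85 with a limma adjusted p of 0.0395. Suz12 (ENSMUSG00000017548, chromosome 11, 79993106 to 80034123, plus strand), the scaffold subunit, had 933, 1249, 1399 and 1157 in TNFR2+ and 658, 1019.9, 638 and 863 in TNFR2- Tregs. Only TNFR2+ replicate 1 and TNFR2- replicate 2 crossed. Its log2 fold change was 0.59 ± 0.18 SE (95% interval 0.19 to 0.98, limma adjusted p = 0.0697, exact permutation p = 0.0571), and 0.72 without TNFR2- replicate 2 (limma adjusted p = 0.0428). Eed (ENSMUSG00000030619, chromosome 7, 89954654 to 89980983, minus strand), which binds the methylated histone, had 614, 460.3, 575 and 243 in TNFR2+ and 469, 474, 578 and 381 in TNFR2- Tregs. TNFR2+ replicate 4 was the lowest library, and the rest of the ranges overlapped. Eed had a log2 fold change of -0.08 (95% interval -0.65 to 0.50, limma adjusted p = 0.902), and 0.21 without TNFR2+ replicate 4.

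**Figure D3:**
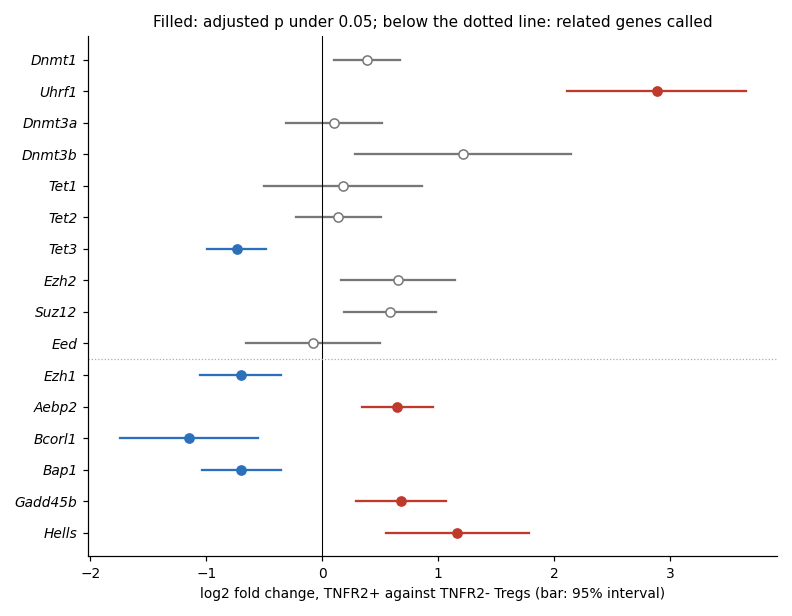
Log2 fold change of TNFR2+ against TNFR2- Tregs with its 95% interval for the 10 members and, below the dotted line, the 6 related genes past the threshold; filled points have a limma adjusted p under 0.05 (red higher, blue lower). Uhrf1 at 2.89 and Tet3 at -0.74 are the filled members.

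Differences between genes within a library were compared next, for 13 pairs, which do not depend on how libraries were scaled to each other except through the pseudocount. Dnmt1 and Uhrf1 were each set against the de novo and TET genes, and Ezh2 against Suz12, Eed and Ezh1. In 7 pairs the populations did not overlap, each with an exact two-sided permutation p of 0.0286, the smallest that 4 against 4 libraries allow, and 0.0531 after adjustment over the pairs. Each of the 7 holds Uhrf1, Tet3 or Ezh1, which passed the threshold on their own, so the pairs are not separate observations. The share of other pairs of genes without overlap was not computed. No pair therefore passed 0.05 after adjustment, and the sizes are given as values.

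Uhrf1 minus Tet3 was the widest of these differences. On the log2 scale of normalized counts it was -1.92, -1.67, -1.95 and -2.18 in TNFR2+ and -4.74, -6.58, -5.59 and -5.32 in TNFR2- Tregs, a difference of 3.62. All TNFR2+ values lay above all TNFR2- values. The same held for Uhrf1 against Dnmt3a (2.79), Tet2 (2.74), Tet1 (2.71) and Dnmt3b (1.67). Dnmt1 minus Tet3 was -0.62, -0.29, -0.23 and -0.61 in TNFR2+ and -1.63, -1.71, -1.53 and -1.38 in TNFR2- Tregs, a difference of 1.12 with no overlap. Dnmt1 against the other genes overlapped between the populations. The differences were 0.29 for Dnmt3a (exact permutation p = 0.4), 0.24 for Tet2 (p = 0.4 by the same exact test), 0.21 for Tet1 (exact p = 0.457) and -0.83 for Dnmt3b (exact p = 0.114). Averaged over a class, with no test, the mean log2 normalized count was 1.63 higher in TNFR2+ Tregs for the maintenance genes, 0.66 higher for the de novo genes, 0.39 higher for the PRC2 core, and for the TET genes the difference was -0.14. Genes of a class did not move alike. Log2 fold changes were 2.89 for Uhrf1 and 0.38 for Dnmt1, and 1.22 for Dnmt3b and 0.10 for Dnmt3a. They were -0.74 for Tet3, 0.18 for Tet1 and 0.14 for Tet2, and 0.65 for Ezh2, 0.59 for Suz12 and -0.08 for Eed.

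**Figure D4:**
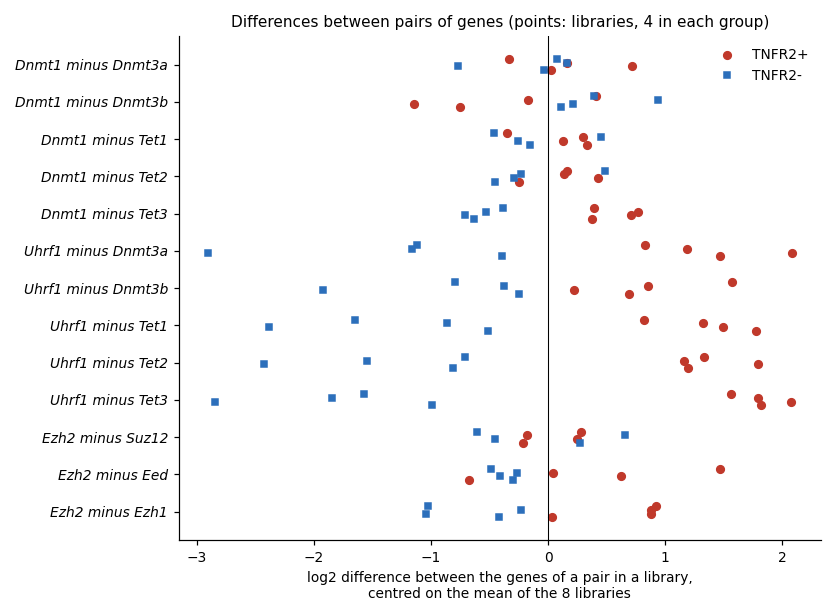
Log2 difference between the genes of each pair in each library, centred on the mean of the 8 libraries (red circles TNFR2+, blue squares TNFR2-). Red and blue separate in the 5 Uhrf1 pairs, in Dnmt1 minus Tet3 and in Ezh2 minus Ezh1.

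Ezh1 (ENSMUSG00000006920, chromosome 11, 101191115 to 101226463, minus strand), the paralog that takes the catalytic place of Ezh2 mostly in cells that do not divide, fell. It had normalized counts of 480.0, 489.6, 410.0 and 451 in TNFR2+ and 649, 932, 719 and 706 in TNFR2- Tregs. The groups did not overlap. The log2 fold change was -0.70 ± 0.16 SE (95% interval -1.05 to -0.35, limma adjusted p = 0.0178). It missed the threshold without TNFR2+ replicate 3 (limma adjusted p = 0.0567) and without TNFR2- replicate 2 (0.0605). Per kilobase of the longest coding transcript, the level of Ezh2 was 1.33, 2.40, 2.40 and 2.48 times that of Ezh1 in TNFR2+ and 0.973, 0.634, 1.11 and 0.639 times in TNFR2- Tregs. Ezh2 was thus above Ezh1 in every TNFR2+ library and below it in all TNFR2- libraries but replicate 3. With the median coding transcript the ratios were 1.55 to 2.88 and 0.736 to 1.29, and Ezh2 was above Ezh1 in TNFR2- replicate 1 as well. The log2 difference of the pair was 1.36 higher in TNFR2+ Tregs (exact permutation p = 0.0286, 0.0531 adjusted over the pairs). Ezh2 minus Suz12 differed by 0.07 (exact p = 0.857) and Ezh2 minus Eed by 0.73 (exact p = 0.171).

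Levels were set between genes per kilobase of the longest coding transcript. In TNFR2+ Tregs the mean normalized counts per kilobase ran from Suz12 (271 ± 44.6, SD, n = 4) and Dnmt1 (269 ± 22.3) over Ezh2 (233 ± 57.2), Eed (229 ± 80.7), Tet3 (197 ± 21.4), Dnmt3a (185 ± 39.6) and Tet2 (185 ± 33.3) to Uhrf1 (158 ± 29.0), Dnmt3b (26.2 ± 13.7) and Tet1 (8.26 ± 1.59). Neighbours in this order overlapped over the libraries from Suz12 down to Uhrf1, and Uhrf1, Dnmt3b and Tet1 were apart. In TNFR2- Tregs Tet3 stood first (328 ± 24.0) and apart from Eed (230.1 ± 39.0), followed by Dnmt1 (207 ± 26.0), Suz12 (182 ± 41.5), Dnmt3a (174 ± 42.8), Tet2 (169 ± 35.9) and Ezh2 (147 ± 34.0), whose neighbours overlapped. Uhrf1 (23.6 ± 12.8) came next, apart from Ezh2, and overlapped Dnmt3b (10.3 ± 2.82), which overlapped Tet1 (7.53 ± 2.58). The median protein-coding gene tested had 74.7 in TNFR2+ and 70.3 in TNFR2- Tregs on this scale, so that Uhrf1 lay above the median of genes in TNFR2+ and below it in TNFR2- Tregs. The order between genes depends on the length used: with the median coding transcript, Dnmt3a, annotated with 18 transcripts, moved from 185 to 2204 and Tet1 from 8.26 to 209 in TNFR2+ Tregs.

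On the same scale, Dnmt1 exceeded Uhrf1 in every library. The level of Uhrf1 was 0.663, 0.630, 0.496 and 0.547 times that of Dnmt1 in TNFR2+ and 0.189, 0.0541, 0.0968 and 0.106 times in TNFR2- Tregs. The libraries of the populations were apart. Of the summed level of the 3 TET genes, Tet3 made up 47.5% to 53.9% in TNFR2+ and 61.4% to 70.9% in TNFR2- Tregs, and Tet2 43.4% to 50.7% and 26.8% to 37.3%. Tet1 made up 1.49% to 2.73% and 0.969% to 2.27%. These shares depend on the length used, and with the median coding transcript Tet1 made up 16.9% to 27.4% and 11.7% to 24.0%, Tet2 33.3% to 43.9% and 21.6% to 33.0%, and Tet3 37.1% to 39.9% and 51.6% to 55.5%.

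Replication and proliferation genes were read beside the members, since maintenance methylation is coupled to DNA copying. Of 12 such genes 7 rose and none fell, beside 4.52% and 3.39% of all genes, with a median log2 fold change of 1.53. At an unadjusted p under 0.05, limma had 10 of them higher and 0 lower, beside 12.3% and 10.7% of all genes. Mki67, a proliferation marker, had 3834 ± 1014 and 577 ± 289 normalized counts (SD, n = 4) and a log2 fold change of 2.84 (limma adjusted p = 0.000352). Pcna, the sliding clamp of replication, had 1416 ± 109 and 1616 ± 356, with a log2 fold change of -0.17 (95% interval -0.50 to 0.17). The mean log2 value of the 12 genes lay between 8.71 and 9.43 in TNFR2+ and between 7.32 and 8.09 in TNFR2- Tregs. All 12 count equally in their mean, though Ccnb1 and Cdk1 went down to 0 and 0.723 normalized counts in TNFR2- Tregs. Taken as the log2 distance from this mean, Uhrf1 stood at -0.32 to 0.21 in TNFR2+ and -2.24 to -0.79 in TNFR2- Tregs. The difference of this distance between the populations was 1.40 for Uhrf1. For the other 9 members it ran from -0.27 for Dnmt3b to -2.22 for Tet3. These differences take the same 1.48, the shift of the mean, off every log2 fold change, so their signs follow from the fold changes alone. Within the 12 genes log2 fold changes ran from -0.17 to 3.07, so the distance is no correction for proliferation. For Dnmt1 the distances were 1.35 to 1.79 and 2.19 to 3.14, and for Ezh2 -0.51 to 0.83 and 0.62 to 1.23. The part of these genes in the results on the members was not tested.

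The other genes of the pathways were read from 6 lists with 66 genes, of which 65 were in the table (all but Dnmt3l) and 64 were tested (Smug1 lay under the filter). Of these 3 rose and 3 fell, against the 4.52% and 3.39% of all genes, and the median log2 fold change was -0.06. Without the intensity trend of the fit none of the 6 passed (limma adjusted p = 0.0631 to 0.141), while Uhrf1 (0.0166) and Tet3 (0.0436) did. Among 9 other PRC2 subunits (median 0.31) Aebp2 rose and Ezh1 fell. Aebp2, an accessory subunit that stabilises the complex, had 2153, 2174, 1735 and 1727 in TNFR2+ and 1277, 1037, 1429 and 1227 in TNFR2- Tregs. The groups were apart, with a log2 fold change of 0.65 ± 0.14 SE (limma adjusted p = 0.0131, and 0.0546 without TNFR2+ replicate 2). The Jumonji-family subunit Jarid2 had a log2 fold change of 0.48 (95% interval 0.12 to 0.85, limma adjusted p = 0.0976).

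PRC1 is the partner complex that ubiquitinates histone H2A. Of its 23 subunits listed (median log2 fold change -0.08) only Bcorl1, a corepressor of a variant PRC1, was called. It had 152, 90.9, 149.5 and 101 in TNFR2+ and 340.1, 329.8, 239 and 192 in TNFR2- Tregs. The groups did not overlap, and it fell by 1.15 on the log2 scale (limma adjusted p = 0.0214, 0.0549 to 0.0739 in the 4 fits without TNFR2+ replicates 2 or 4 or TNFR2- replicates 1 or 2). Of 5 genes that undo Polycomb marks (median -0.19) Bap1, the catalytic H2A deubiquitinase, fell. Its values were 615, 571, 435 and 558 in TNFR2+ and 830.2, 1003, 886 and 808 in TNFR2- Tregs, again apart. The log2 fold change was -0.70 ± 0.16 SE (limma adjusted p = 0.0157, 0.0510 without TNFR2+ replicate 3 and 0.0555 without TNFR2- replicate 2). The histone demethylases Kdm6a and Kdm6b had log2 fold changes of 0.02 (95% interval -0.23 to 0.28) and -0.28 (-0.49 to -0.07, limma adjusted p = 0.102).

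Of 9 partners of methylation and demethylation 7 were tested (median 0.22), and Hells and Gadd45b rose. Hells, a chromatin remodeler needed for normal DNA methylation, had 429, 432, 299.7 and 465 in TNFR2+ and 96.4, 215, 201 and 242 in TNFR2- Tregs. The groups were apart, with a log2 fold change of 1.17 ± 0.29 SE (limma adjusted p = 0.0236, 0.0636 to 0.072 in the fits without TNFR2+ replicates 1, 2 or 4). Gadd45b, a stress-induced gene linked to active demethylation, had 1924, 2784, 1933 and 1583 in TNFR2+ and 1194, 1389.8, 1508 and 993 in TNFR2- Tregs. The groups were apart by a small margin, with a log2 fold change of 0.68 ± 0.18 SE (limma adjusted p = 0.0362). It missed the threshold in 6 of the 8 fits that left out a library, all but those without TNFR2+ replicate 4 or TNFR2- replicate 3 (limma adjusted p up to 0.111). The thymine DNA glycosylase Tdg, which removes oxidised methylcytosine, had a log2 fold change of 0.22 (95% interval -0.23 to 0.66). None of 10 methyl-CpG binding proteins (log2 fold changes of -0.26 to 0.35, median -0.15) and none of 10 enzymes of methyl donor and 2-oxoglutarate metabolism (-0.74 to 0.71, median 0.09) passed the threshold. At an unadjusted p under 0.05, limma had 1 of the former higher and 0 lower, and 1 of the latter in each direction, shares at or under the 12.3% and 10.7% of all genes.

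The genes whose profile over the 8 libraries lay closest to that of a called member were measured by the root mean square difference of log2 values centred on each gene's mean. For Uhrf1, whose own profile had a root mean square of 1.54, they were Sccpdh (0.402), the condensin subunit Ncapg (0.409) and the matrix protein Matn2 (0.428). Their log2 fold changes were 2.48, 2.26 and 2.55. For Tet3, with a root mean square of 0.39, they were the Kruppel-like factor Klf13 (0.0739), the histone H3 methyltransferase Kmt2c (0.085) and the zinc finger gene Zbtb11 (0.086). Their log2 fold changes were -0.65, -0.74 and -0.81. Being chosen for their likeness to a called gene, they carry no test here.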

How the data were processed

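TNFR2+ and TNFR2- Tregs were sequenced from spleens of Foxp3 YFP-cre mice, 4 libraries each. After trimming, the authors quantified transcripts of GRCm38 with Salmon 1.3.0 and scaled the gene counts with DESeq2 1.28, per the methods and the submitters' processing notes. The deposited values are this normalized signal per gene, for 20172 Ensembl identifiers, not on a log scale. How transcripts were summed to genes is not given in the sources used here. Whole reads could not be recovered for genes with several transcripts, so no count model was fitted, and reads of a gene and of overlapping genes or copies were divided by the authors' estimates.

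GENCODE for GRCm38 gave symbols, coordinates and transcript lengths for 20008 of them. The 13990 genes averaging 10 or more normalized counts across the 8 libraries were put on the scale log2(normalized count + 1) and fitted with limma 3.58.1 in R 4.3.3 (group as the single term, intensity trend, two-sided), adjusted by Benjamini-Hochberg over all of them and called at an adjusted p under 0.05. Fold changes are on the log2(normalized count + 1) scale and understate changes of low genes. The code of the fit was run on simulated whole counts with known fold changes. These had the same setting of spread for every gene and no outlying library. The run therefore does not show how the fit performs on the deposited values. For a single gene, or a difference between a pair of genes, all 70 ways to split 4 libraries from 4 gave an exact permutation test, two-sided, in which p cannot go below 0.0286. Every gene or pair whose groups do not overlap has this lowest p, and for single genes it was not adjusted.

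The alternatives were pseudocounts of 0.5 and 5, a minimum mean of 50, no filter, no intensity trend, library quality weights, 3 other scalings (upper quartile, median of ratios, quantile), protein-coding genes only, a replicate block, each library left out, and, for levels per kilobase, the median in place of the longest coding transcript. Genes named are the 10 enzymes, Tnfrsf1b, Ezh1, Mki67, Pcna, genes of the related lists past the threshold (up to 4 in each direction) and the 3 protein-coding genes with the closest profile to each enzyme past it. Other genes are named where a value stands beside a result, after their values were seen. The members, the lists and the sequence words were chosen with earlier results of these data known. Near-identical copies of 25 named genes in other annotated transcripts (95% identity or more) were looked for with blastn 2.17.0. Promoter windows came from RefSeq (GRCm38.p6), and no protein sequences were used here. Plots were drawn with matplotlib 3.10.9 in python 3.11.15.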

Additional observations from a re-analysis of the deposited data

How the results depend on the processing

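Uhrf1 and Tet3 passed the threshold in every fit run, with log2 fold changes of 2.53 to 3.20 and -0.79 to -0.67 when each library in turn was left out. Leaving out single libraries gave 339 to 777 genes higher and 279 to 547 lower, 1 to 2 members higher and 1 member lower, 0 to 4 related genes higher and 0 to 3 lower. Without the intensity trend, 283 genes were higher and 182 lower, and 0 related genes passed in either direction.

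Log2 fold changes over the fits that left out a library were 0.51 to 0.85 for Ezh2 and 0.49 to 0.72 for Suz12, each passing in 1 of them (Ezh2 without TNFR2+ replicate 1, Suz12 without TNFR2- replicate 2). They were -0.03 to 0.25 for Dnmt3a, -0.04 to 0.37 for Tet1 and -0.23 to 0.21 for Eed, whose sign turned in some of them (Dnmt3a -0.018 and Eed 0.21 without TNFR2+ replicate 4; Dnmt3a -0.033, Tet1 -0.038 and Eed 0.021 without TNFR2- replicate 3). The cause was not tested.

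Replicate numbers share no stated mouse or day, and deviations of same-numbered libraries from their group means correlated at 0.001, -0.009, -0.039 and -0.005, so they were not read as pairs. With the replicate block, 675 genes were higher and 508 lower, 5 related genes were higher and 3 lower, and no call on a member changed (Uhrf1 2.89, Tet3 -0.74). For pairs of genes the same pairing allows no p below 0.125. The 13 pair differences moved by less than the larger of the SDs of the TNFR2+ and TNFR2- libraries under every alternative run. Some moves exceed the smaller SD. When a library is left out, the bound by the larger SD holds by arithmetic, so it tests nothing there. The estimated depth of about 9100000 to 12110000 reads per library limits members with low values, among them Dnmt3b and Tet1 (at most 189 and 156 normalized counts in a library) and Uhrf1 in TNFR2- Tregs (35.3 to 144).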
